A study of Drosophila melanogaster with 8 samples.

Results

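Cytoplasmic ribosomal protein genes were taken as all features whose symbol begins with RpL, RpS or RpLP followed by a number. They number 92 of the 17717 features of the count matrix. By symbol alone, 38 were assigned to the small subunit, 50 to the large subunit and 4 to the acidic stalk. The study profiled whole Drosophila melanogaster embryos at stage 17, aged 17-18.5 h at 25C, by droplet-based scRNA-seq. All embryos shared 1 genotype, with alrm-gal4, UAS myr::GFP and 25H07-gal4, UAS-redstinger::NLS, and no treatment, so that every cell carried the astrocyte drivers and reporters. The labels name 8 samples, from 4 biological replicates run on 2 lanes each, and the paper describes the lanes as technical replicates of sequencing. The comparisons made here are between cell classes within those embryos.

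Ribosomal proteins and ribosomal RNA assemble in the nucleolus into a small subunit, which decodes the mRNA, and a large subunit, which joins the amino acids. Most of the proteins are needed in equal number, and in flies most come from a single gene. For some proteins a second gene exists, often known for expression in the germ line, and a few genes with a "-like" name are counterparts of yeast factors that help assemble the subunits and then leave.

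The barcodes carry a number from 1 to 8 that was not assigned to a sample in any source, so the libraries were handled as 4 unnamed library pairs, in which a barcode present under both numbers was summed to 1 cell. Numbered libraries held 7580 to 10547 barcodes and 26261446 to 36130722 unique molecular identifiers (UMIs, tags that mark single captured RNA molecules). Of 38531 summed cells, 27932 had at least 200 genes and under 20% mitochondrial UMIs and were kept, with a median of 4069 UMIs and 1098 genes. Clusters built without the ribosomal protein genes were named from marker lists. The 8 classes described here comprised 1550 mira progenitor-like, 4635 neuron-like, 1030 glia-like, 6287 hemocyte-like, 3325 fat body-like, 1150 muscle-like, 2917 epidermis-like and 143 midgut-like cells. Markers were highest in their own class for 9 of 12 genes in mira progenitors, 8 of 10 in neurons, 8 of 13 in glia, 12 of 12 in hemocytes, 8 of 10 in fat body, 14 of 14 in muscle, 9 of 12 in epidermis and 8 of 13 in midgut, where the other 5 markers were at 0. In glia, a class of 1 cluster, Gat, wrapper, Eaat1, Eaat2 and Ndae1 were higher in another class. repo, moody, CG6126 and CG10702 were highest in glia. The paper uses moody and CG10702 for subperineurial glia and CG6126 for perineurial glia, 2 kinds of surface glia. It uses wrapper for cortex glia and Eaat2 for ensheathing glia, so the class described here does not stand for all glia. The label of the mira progenitors held in part. mira, which marks neural progenitors, reached 352 CPM (UMIs scaled to 1000000 UMIs of the class) there, at most 14 CPM in the other 7 classes and 112 CPM in an unnamed cluster led by E(spl)m4-BFM, but elav, which marks neurons, reached 1872 CPM in mira progenitors and 1236 CPM in neurons. fne, another neuron marker, was also higher in mira progenitors (3748 CPM) than in neurons (3537 CPM). The 10 neuron markers summed to 12270 CPM in mira progenitors and 18524 CPM in neurons. The 12 markers of mira progenitors summed to 2669 CPM in their own class. Both sets of markers were thus found in this cluster, which was not split.

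Library pair 1 stood apart from the other pairs. Neurons made up 4.16% of its kept cells, against 17.8% to 24.9% in the other 3 pairs, while fat body made up 20.8%, against 6.18% to 10.6%. Ribosomal protein genes took 35.3% of the UMIs of kept cells in pair 1, 24.7% in pair 2, 27.4% in pair 3 and 26.0% in pair 4. Values are therefore given by library pair. No source gives which pair is which replicate, and all embryos belong to 1 condition. The spread over pairs is therefore a description of these libraries and no p-value is given.

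Over all kept cells, ribosomal protein genes held 65138340 of 230848097 UMIs, or 28.2%. At least 1 UMI was found for 91 of the 92 genes. The gene with the most UMIs was RpLP1, of the acidic stalk that recruits translation factors, with 1809657 UMIs or 2.78% of all ribosomal protein UMIs. RpL27A followed with 2.40%, RpL41, the smallest ribosomal protein, with 2.03%, RpS15 with 2.02% and RpL19 with 1.96%. These 5 genes together took 11.2%, so that no gene dominated the class. The median gene took 1.20%, and 69 genes reached at least 1000 CPM in each of the 8 cell classes. Only 13 genes took under 0.1%. RpL22, a large subunit protein, was the sole gene among them that is not a second copy or a "-like" gene, with 50457 UMIs (rank 82). The genes lie on every major chromosome arm, with 19 on 2L, 21 on 2R, 14 on 3L, 23 on 3R, 1 on 4 and 14 on X in the Ensembl annotation of BDGP6.54. UMIs were counted near the 3′ end of transcripts and were not divided by length, so levels of different genes are shares of molecules.

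The share of UMIs in ribosomal protein genes differed 2.89-fold between the highest and the lowest of the 8 classes. It was highest in fat body, the larval storage and metabolic organ, at 39.8%, and lowest in neurons, at 13.8%. In the fat body, the share was 42.4%, 37.7%, 39.0% and 38.6% in library pairs 1 to 4 (39.4 ± 2.04, SD, n = 4 pairs). In neurons, it was 21.3%, 12.9%, 13.9% and 13.4% (15.4 ± 3.98, SD, n = 4 pairs). The pooled shares of the 2 classes did not overlap in any pair. The highest class exceeded the lowest 1.98-fold in pair 1, which was the smallest fold, and 2.80-fold to 2.91-fold in the other pairs.

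Midgut and muscle came next to the fat body. The midgut share was 39.8%, 33.3%, 33.6% and 33.5% in pairs 1 to 4 (35.1 ± 3.15, SD, n = 4 pairs), and the muscle share was 37.0%, 30.3%, 34.0% and 31.1% (33.1 ± 3.05). The order of these neighbours was the same in 3 of 4 pairs, so they were not separated by more than their spread, while fat body exceeded midgut in 4 of 4 pairs.

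Hemocytes, glia and epidermis formed a middle group. Pooled over the pairs, their shares were 25.4% in hemocytes, 25.4% in glia and 24.7% in epidermis. Hemocytes, the blood cells, ranged from 24.6% to 28.1% over the pairs, glia from 24.3% to 29.0%, and the epidermis from 22.4% to 30.1%. Hemocytes exceeded glia in 2 of 4 pairs and glia exceeded epidermis in 3 of 4, so that these 3 classes cannot be put in an order.

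Mira progenitor-like cells, from a cluster that also held many neuron markers, had a lower share than every class other than neurons. Their share was 25.6%, 19.8%, 20.4% and 20.2% in pairs 1 to 4 (21.5 ± 2.73, SD, n = 4 pairs). Epidermis exceeded the progenitors in 4 of 4 pairs, and the progenitors exceeded neurons in 4 of 4 pairs. Pair 1 had the highest share in each of the 8 classes. Without pair 1, the share was 38.5% in fat body and 13.4% in neurons, and the fold between the highest and the lowest class was 2.88, beside 2.82 to 2.93 over the 4 ways of leaving out a pair. The position of the progenitors was less firm than the extremes. An unnamed cluster led by E(spl)m4-BFM, with 112 CPM of mira and 363 CPM of elav, had 32.4%. The progenitors were no longer next to neurons when the ribosomal protein genes were used in clustering (24.9%), when cells were chosen singly by their markers (27.2%), or when cells with UMIs of 2 or more markers of any other class were left out (27.8%, 74 cells).

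**Figure D1:**
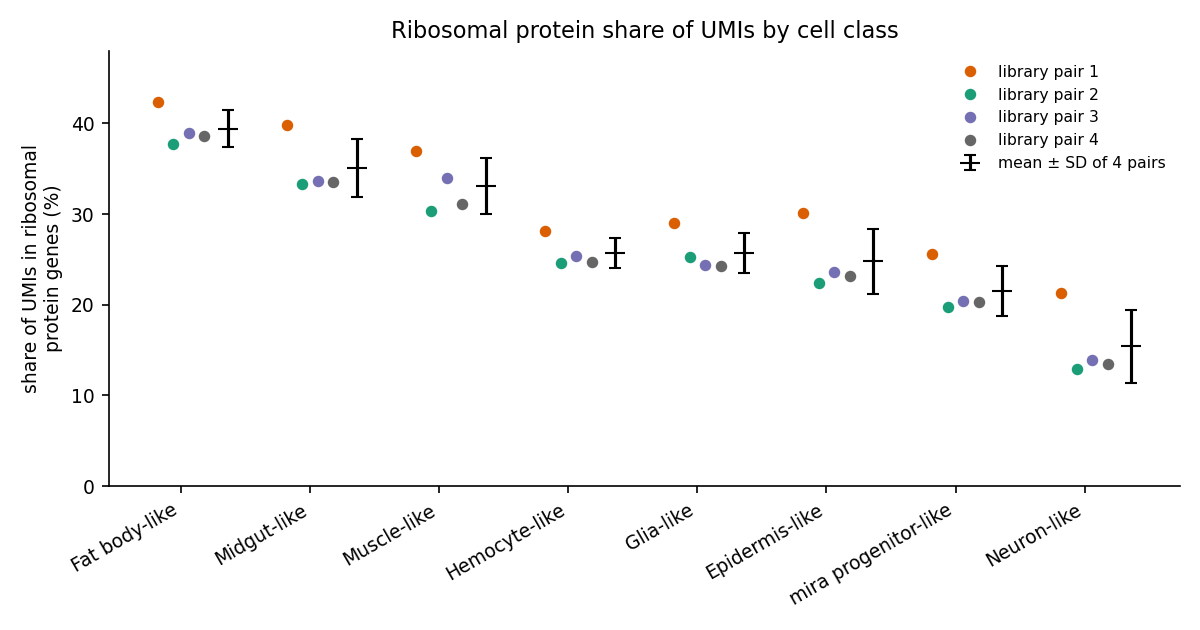
Share of UMIs in ribosomal protein genes (y axis, percent) for each of the 8 cell classes (x axis), with 1 point per library pair and the mean ± SD of the 4 pairs. Fat body (37.7% to 42.4%) and neurons (12.9% to 21.3%) do not overlap, and library pair 1 is the highest point in every class.

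Set against the mean of the other 7 classes, with each class given the same weight, the share was 39.8% in fat body and 25.7% elsewhere (log2 ratio 0.63, 0.49 to 0.67 over pairs). It was 35.2% in midgut and 26.3% elsewhere (0.42, 0.38 to 0.43), and 34.3% in muscle and 26.4% elsewhere (0.38, 0.26 to 0.40). These 3 classes were above the mean of the others in each pair. Neurons had 13.8%, against 29.4% elsewhere (-1.09, -1.09 to -0.63). Mira progenitors had 20.8%, against 28.4% elsewhere (-0.45, -0.44 to -0.35). Both were below it in each pair. Hemocytes had 25.4%, against 27.7% elsewhere (-0.12, -0.20 to -0.08), and glia had 25.4%, against 27.7% (-0.13, -0.15 to -0.04). The epidermis had 24.7%, against 27.8% (-0.17). The last 3 ratios were also below 0 in each pair, but their differences in percent were smaller than the range of the class over the pairs. A share of UMIs is relative, and more ribosomal protein RNA cannot be told apart here from less of all other RNA. Without the UMIs of the 50 most abundant other genes of each class in the denominator, the share was 51.9% in fat body, 51.1% in muscle and 19.2% in neurons, which kept the highest and lowest places.

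Clusters within a class also differed. Among neurons, the cluster led by ppk26, a channel subunit of sensory neurons, had 16.3% of UMIs in ribosomal protein genes, against 12.6% and 12.3% in the other 2 neuron-like clusters. The muscle-like cluster led by sing, which acts in myoblast fusion, had 38.7%, against 32.4% in the other muscle-like cluster. In the fat body, the clusters led by Lip2 and Hex-C had 41.5% and 39.0%, and that led by apolpp had 29.4%, at a median of 1445 UMIs per cell and 10.1% mitochondrial UMIs, against 6410 and 14742 UMIs and 4.16% and 4.85% in the other 2. The part of depth and mitochondrial UMIs in that difference was not tested. Hemocyte-like clusters spanned 20.4% to 34.9%, and epidermis-like clusters 22.6% to 29.4%. Clusters without a class name, with 6224 cells, were left out. They include a cluster of 1698 cells led by CG4467, with 1369 CPM of elav, against 1236 CPM in the neuron-like class. Its share was 18.9%, at a median of 1300.5 UMIs per cell, and it is not part of the neuron value. The cluster led by the astrocyte gene alrm, with 22.2%, was also left out and is therefore not part of the glia described here. So was a cluster of 730 cells led by CG15423, with 762 CPM of the midgut marker mex1, against 354 CPM in the midgut-like class. The 143 midgut-like cells may therefore not stand for all midgut cells.

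Gene by gene, the low share in neurons was shared by most of the list. In neurons, 56 of the 86 genes with at least 100 UMIs over the 8 classes (65.1%) were at least 2 times lower in CPM than in the mean of the other 7 classes, against 31% of all 10131 features tested, and none was 2 times higher, against 23.8%. Their median log2 ratio was -1.06, beside -0.10 over all features. In fat body the median of the 86 genes was 0.62, beside -0.99 over all features. Only 4 of them were at least 2 times higher, against 15.4% of all features, and none was 2 times lower, against 49.8%. Among the 6 genes at the ends of the list in fat body, the log2 ratio of CPM was 1.79 for RpLP0-like, 1.77 for RpS10a, 1.25 for RpL34a and 0.24 for RpL24-like, and it was -0.26 for RpS19b and -0.80 for RpS5b.

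In the other classes, few genes passed the 2-fold limit. The numbers higher and lower were 2 and 0 in mira progenitors (31.8% and 31.5% of all features), 0 and 2 in glia (9.08% and 39.6%), 1 and 4 in hemocytes (8.82% and 58.2%), 0 and 0 in muscle (5.25% and 44.5%), 0 and 3 in epidermis (11.8% and 61%) and 1 and 1 in midgut (16.1% and 45.9%). The median log2 ratio of the 86 genes was -0.42 in mira progenitors, beside 0.21 over all features. It was 0.38 in muscle and 0.37 in midgut. Over all classes together, 58 of the 86 genes passed the limit in at least 1 class, against 95.5% of all features, and 7 did so outside neurons.

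To compare the genes with each other, each was then expressed as its share of the ribosomal protein UMIs of the class, which takes out the difference in the total. On this scale the list was close to even. Of 680 combinations of a gene and a class with at least 20 expected UMIs, 15 (2.21%) differed at least 2-fold from the mean of the other 7 classes, and these came from 6 of 86 genes (6.98%). The median size of the log2 ratio was 0.08. No ratio past 1.5-fold was found for 78 genes in any class, and 66 genes stayed within a ratio of 5 to 4 in all classes assessed. The subunits kept their proportions. Small subunit genes took 39.9% of ribosomal protein UMIs in fat body and 42.7% in neurons, the lowest and the highest class, and large subunit genes took 54.2% in hemocytes and 52.6% in neurons. The 4 genes assigned to the acidic stalk took 6.10% in fat body, 6.07% in midgut and 4.63% in neurons. These groups are by symbol, so they also count counterparts of assembly factors, such as RpLP0-like and RpL24-like.

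**Figure D2:**
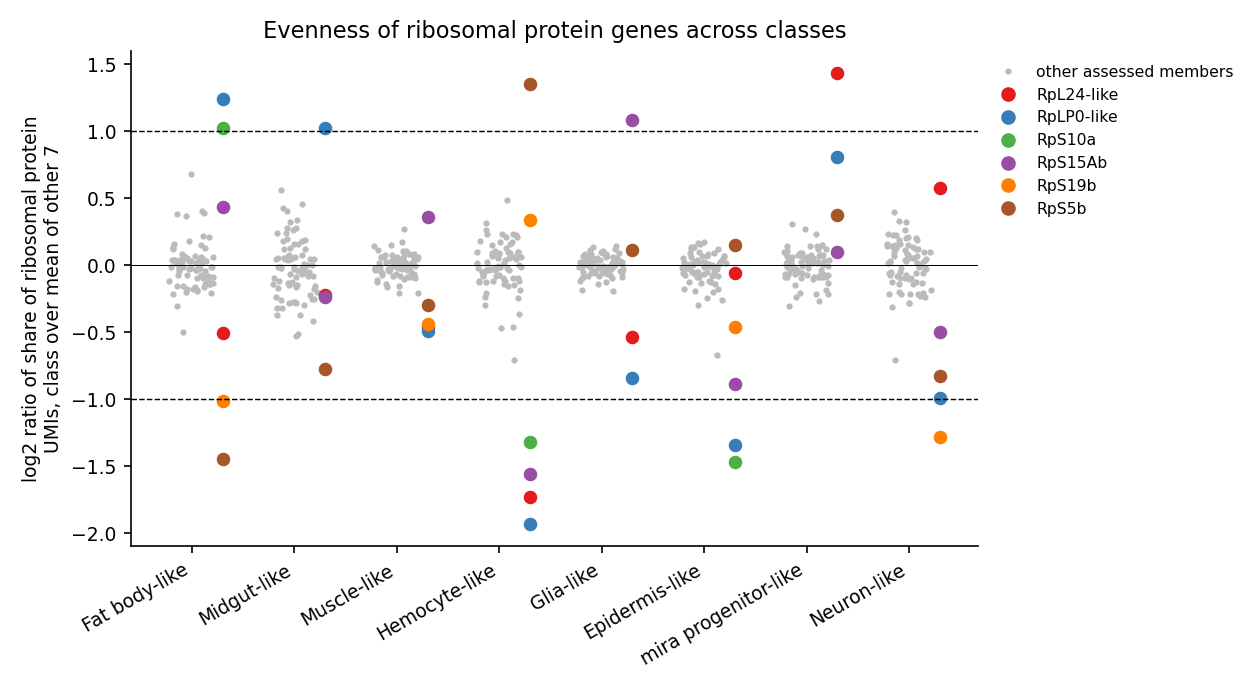
Log2 ratio of each gene's share of ribosomal protein UMIs in a class over the mean of the other 7 classes (y axis), with 1 point per gene and class, the classes along the x axis and dashed lines at 2-fold. Nearly all points lie close to 0, and the 15 points past 2-fold belong to 6 genes.

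All 6 genes past 2-fold, RpS5b, RpL24-like, RpLP0-like, RpS15Ab, RpS10a and RpS19b, are second copies or "-like" genes. The direction was the same in 4 of 4 library pairs for 13 of the 15 combinations. These 13 include RpS19b in neurons, which had no UMI in pair 1 and was counted as lower there. For 13 groups of genes matched by symbol, the genes of a group were compared within the class. Some of the "-like" genes in these groups are counterparts of assembly factors and not second copies of the subunit protein.

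RpL24-like is the counterpart of the yeast factor Rlp24, which holds the place of RpL24 on the large subunit while it is assembled. Of the 8 classes, it was highest in mira progenitors, with 425, 476, 474 and 508 CPM in pairs 1 to 4, and lowest in hemocytes, with 96.0, 92.2, 79.3 and 84.7 CPM. The 2 classes lay far apart in every pair. As a share of ribosomal protein UMIs, it was higher in mira progenitors than in the mean of the other classes by 1.43 on the log2 scale (1.18 to 1.5 over pairs), and its log2 ratio in hemocytes was -1.73 (-1.86 to -1.43). RpL24 itself, the subunit protein, differed little in those classes, with log2 ratios of 0.08 and -0.04. RpL24-like accordingly made up 19.3% of the UMIs of the 2 genes in mira progenitors (95% Clopper-Pearson interval 18.9% to 19.8%), 13.2% in neurons, 10.1% in epidermis and 3.68% in hemocytes (3.53% to 3.83%). The intervals cover counting error only.

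RpLP0-like is the counterpart of yeast Mrt4, an assembly factor that precedes the stalk protein RpLP0. It had 212, 171, 182 and 186 CPM in fat body and 16.8, 18.6, 16.7 and 18.0 CPM in hemocytes, with no overlap. Its log2 ratio was 1.24 in fat body (1.18 to 1.31 over pairs), 1.02 in midgut (0.56 to 1.67), 0.81 in mira progenitors (0.26 to 1.11), -0.99 in neurons (-1.11 to -0.85), -1.34 in epidermis (-1.47 to -1.23) and -1.93 in hemocytes (-2.18 to -1.75). The midgut value was uneven over the pairs, at 244 CPM in pair 1 and 108 to 129 CPM in the other 3. RpLP0-like gave 4.48% of the UMIs of RpLP0 and RpLP0-like together in mira progenitors, 4.30% in fat body, 3.78% in midgut and between 1.07% and 1.97% in the other 5 classes. RpLP0 was itself uneven to a smaller degree, with a log2 ratio of 0.39 in fat body and -0.20 in neurons. RpL7-like, the counterpart of the yeast assembly factor Rlp7, had 5 UMIs in all kept cells and could not be compared.

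RpS5b is the second copy of the small subunit gene RpS5a and is known for its expression in the ovary. Of the 8 classes, it was highest in hemocytes and lowest, relative to the other genes, in fat body. Hemocytes had 678, 550, 559 and 559 CPM in pairs 1 to 4 and fat body had 212, 137, 147 and 149 CPM. The ranges did not overlap. Its log2 ratio as a share of ribosomal protein UMIs was 1.35 in hemocytes (1.21 to 1.43 over pairs), -1.45 in fat body (-1.59 to -1.39), -0.83 in neurons (-0.91 to -0.33) and -0.77 in midgut (-0.87 to -0.72). RpS5a went the other way and moved less, with -0.36 in hemocytes and 0.37 in fat body. RpS5b thus supplied 28.7% of the UMIs of the 2 copies in hemocytes (28.3% to 29.1%), 16.5% in mira progenitors, 15.5% in epidermis, 13.5% in glia, 10.2% in muscle, 8.58% in neurons, 8.48% in midgut and 4.61% in fat body (4.51% to 4.70%). The hemocyte share was between 27.9% and 30.9% in every pair.

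RpS15Ab, the second copy of the small subunit gene RpS15Aa, was highest relative to the other genes in glia. Glia had 262, 193, 184 and 198 CPM in pairs 1 to 4, and hemocytes had 35.7, 33.3, 47.0 and 41.5 CPM. Fat body had a similar level to glia, with 253, 192, 204 and 217 CPM, and overlapped it, so that glia stood above fat body only as a share of the ribosomal protein total. In CPM, the log2 ratio in glia over the mean of the other 7 classes was 0.87. The log2 ratio was 1.09 in glia (1.02 to 1.21 over pairs) and -1.56 in hemocytes (-1.98 to -1.29). RpS15Ab made up 6.87% of the UMIs of both copies in glia (6.55% to 7.2%), 4.79% in fat body and 1.37% in hemocytes.

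RpL34a and RpL34b encode forms of the same large subunit protein, and RpL34a was the most abundant of the uneven copies. Its levels were 1736, 1493, 1562 and 1552 CPM in fat body, against 473, 424, 445 and 440 CPM in hemocytes. It passed 1.5-fold but not 2-fold, with log2 ratios of 0.68 in fat body (0.67 to 0.69 over pairs), -0.71 in hemocytes and -0.67 in epidermis. It gave 26.3% of the UMIs of both genes in fat body and 11.5% in epidermis. RpS14a and RpS14b, which encode an identical small subunit protein, were close to a constant ratio, with RpS14b at 16.7% in fat body, the lowest class, and 23.4% in mira progenitors, the highest. Reads that align to both copies are not counted, so this ratio rests on the parts where the transcripts differ.

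**Figure D3:**
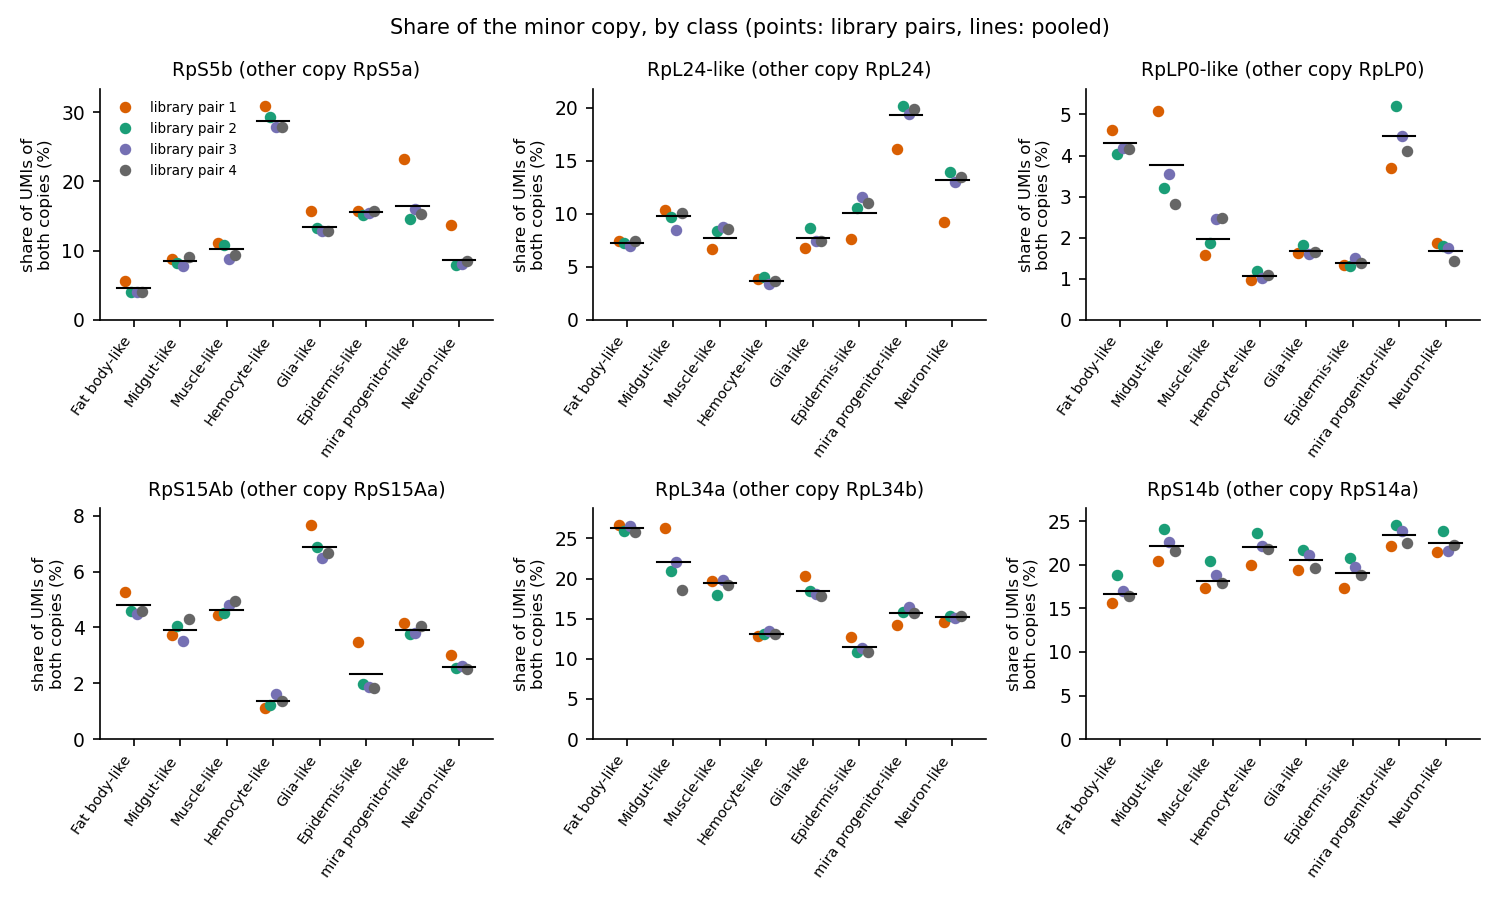
Share of each of 6 genes in the summed UMIs of its group of genes matched by symbol (y axis, percent), in the 8 cell classes (x axis). Each class has 1 point per library pair and a line at the pooled share. RpL24-like and RpLP0-like are counterparts of yeast assembly factors and not second copies. RpS5b is highest in hemocytes (28.7% pooled), RpL24-like in mira progenitors (19.3%), RpS15Ab in glia (6.87%) and RpL34a in fat body (26.3%).

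RpS10a and RpS19b passed the limit on few UMIs. RpS10a had 166 UMIs in fat body, 18 in epidermis and 13 in hemocytes, with log2 ratios of 1.02, -1.47 and -1.32. Without pair 1, its fat body ratio fell to 0.64. RpS19b had 13 UMIs in neurons and 89 in fat body, and its log2 ratios of -1.28 and -1.01 changed sign when only cells with fewer than 2 markers of every other class were used. Neither gene reached 6 CPM in any of the 8 classes.

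Among the other 80 genes assessed, no departure reached 2-fold. RpL41 had 3085, 1700, 1679 and 1293 CPM in neurons in pairs 1 to 4, and 10220, 10154, 9410 and 7564 CPM in fat body. As a share of ribosomal protein UMIs it was 1.19% in neurons and 1.94% in the mean of the other classes (log2 ratio -0.70, -0.71 to -0.53 over pairs). RpL41 was lowest in pair 4 in each of the 8 classes, which the ratio within pairs takes out. RpL15, of the large subunit, was 1.85% in hemocytes and 1.31% elsewhere (0.49, 0.45 to 0.51), and 0.998% in midgut and 1.44% elsewhere (-0.53, -0.74 to -0.30). RpS20 had a log2 ratio of 0.46 in midgut (0.24 to 0.62), where RpS14a had -0.51 (-0.60 to -0.38). RpS6, the target of S6 kinase, took 0.890% in neurons and 0.708% elsewhere (0.33, 0.29 to 0.32). RpS12, a small subunit protein known in flies for its part in cell competition, was at -0.23 in mira progenitors (-0.26 to -0.17) and 0.14 in glia (0.14 to 0.16). The largest ratios in epidermis were 0.17 for RpL6, 0.17 for RpL34b and 0.16 for RpL17, and in muscle 0.36 for the copy RpS15Ab, 0.27 for RpL41 and 0.17 for RpS5a.

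RpL22-like, RpL37b, RpS19b and RpS10a were found mainly outside the 8 classes. A cluster of 228 cells led by plu, wisp, bora and CycB, genes of egg and early embryo, was named germ cell-like. It had 56.5 CPM of vas, 24.2 CPM of nos and 107 CPM of piwi, which mark germ cells, against 1.56, 0.123 and 0.454 CPM in all other kept cells. Its ribosomal protein share was 40.6% of pooled UMIs, against 39.8% in fat body, but the median over its cells was 32.7%, against 39.1% in fat body. RpL22-like, a germ line paralog of RpL22, had 462 of its 516 UMIs there. It was at 128, 104, 106 and 148 CPM in pairs 1 to 4, against 0.264, 0.0914, 0.393 and 0.189 CPM in all other kept cells (pooled log2 ratio 8.96, counting interval 8.55 to 9.40). The cluster was higher by a wide margin in every pair. RpL37b, the second copy of RpL37a, was at 141, 173, 66.5 and 129 CPM, against 0.717, 0.420, 0.589 and 0.430 CPM, with 488 of 610 UMIs in the cluster (log2 ratio 7.87). RpS19b, the second copy of RpS19a of the small subunit, was at 175, 175, 159 and 235 CPM, against 2.21, 2.01, 1.98 and 1.53 CPM, with 709 of 1146 UMIs (6.56). RpS10a, the second copy of RpS10b, was at 114.7, 125, 71.8 and 119 CPM, against 2.34, 1.13, 1.51 and 1.22 CPM, with 412 of 761 UMIs (6.11). Pooled over cells, each of these 4 genes was higher in the cluster than in the other kept cells in every pair. Of the 228 cells of the cluster, 43 (18.9%) had at least 1 UMI of the 4 genes, so most had none.

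Of 89 genes compared, 9 were at least 2 times higher in the germ cell-like cluster, against 20.8% of all 10683 features tested. They were these 4 and RpLP0-like (log2 ratio 1.85, 1.20 to 2.37 over pairs), RpL24-like (1.5, 1.36 to 1.63), RpS5b (1.26, 0.87 to 1.63), RpS15Ab (1.14, 0.40 to 1.63) and RpL34a (1.01, 0.38 to 1.43). All are second copies or "-like" genes. RpS5b, RpS15Ab and RpL34a were not past 2-fold in every pair. The median of the 89 genes was 0.54, beside -0.25 over all features. Over the whole cluster, the main copies were the larger source. RpL22-like gave 29.8% of the UMIs of RpL22 and RpL22-like there (27.6% to 32.2%). RpS5b gave 22%, RpS19b 6.80%, RpL37b 2.29% and RpS10a 1.56% of their pairs. The gene past the lower limit (36.3% of all features) was RpS28-like, with 0 UMIs in the cluster, where 3 UMIs are 0.771 CPM, against 0.790 CPM elsewhere, so no fold is given.

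The cluster was mixed. Chosen after the values were seen, its 41 cells with UMIs of 2 or more germ cell markers held 2027 of its 2071 UMIs of RpL22-like, RpL37b, RpS10a and RpS19b. Another 46 cells had 1 marker and 8 such UMIs, and 141 had no marker and 36 such UMIs. Of the 462 RpL22-like UMIs of the cluster, 452 lay in the 41 cells. The share of each copy within its pair was not computed in these cells alone. Nor were the ratios of the other genes past 2-fold in the cluster. In all, 30 of the 41 cells (73.2%) had at least 1 UMI of the 4 genes, against 750 of 27704 other kept cells (2.71%), but the median depth was 19703 UMIs in the 41 cells and 4068 UMIs in the others. The 41 cells came from all pairs (16, 5, 9 and 11). Their ribosomal protein share was 38.3%, against 43.3% in the 141 cells with no marker, so the share was no higher in the marked cells.

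**Figure D4:**
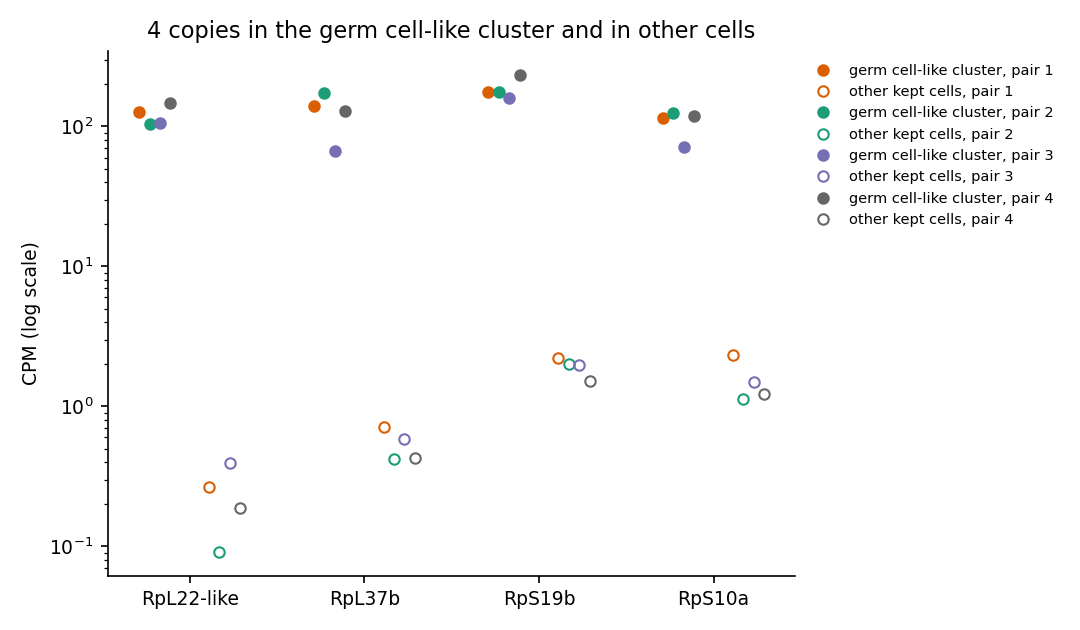
CPM (y axis, log scale) of the 4 rare copies RpL22-like, RpL37b, RpS10a and RpS19b (x axis), in the germ cell-like cluster and in all other kept cells, with 1 point per library pair. All 4 genes lie above 66 CPM in the cluster and below 2.4 CPM in the other cells in every pair.

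RpS28-like, a copy of the small subunit genes RpS28a and RpS28b, was found mainly in a pair of clusters. Of its 179 UMIs, 161 (89.9%, 84.6% to 93.9%) lay in 2 clusters, the neuron-like cluster led by ppk26 and an unnamed cluster led by CG14921, with 12, 51, 49 and 49 UMIs in pairs 1 to 4. The other 36 clusters together had 10, 2, 4 and 2 UMIs. These 2 clusters were picked for their level of the gene, at 10.4 CPM pooled, against 0.0836 CPM elsewhere, which is given as a description. In the neuron-like class RpS28-like still made up only 0.209% of the UMIs of the RpS28 genes. RpS28a had 12 UMIs over all kept cells. RpL10Aa, the second copy of RpL10Ab, had none, which allows a level of up to 0.013 CPM. In the 8 classes alone, 6 genes had under 100 UMIs, namely RpL37b with 84, RpL22-like with 30, RpS28-like with 98, RpS28a with 10, RpL7-like with 4 and RpL10Aa with 0.

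Other genes of translation were set beside these. sta and Rack1, which encode subunit proteins without an Rp symbol, followed the ribosomal protein genes, with median log2 ratios of 0.70 in fat body, 0.48 in midgut, -0.40 in mira progenitors and -1.12 in neurons. Among 7 elongation factor genes, 5 were at least 2 times lower and 1 was 2 times higher in neurons, beside 31% and 23.8% of all features, with a median log2 ratio of -1.27. eEF2, which moves the ribosome along the mRNA, was at 573 CPM in neurons and 1381 CPM in the mean of the other classes.

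Genes of ribosome production in the nucleolus varied more widely than the ribosomal proteins themselves. Of 19 genes tested, 16 were at least 2 times higher in fat body (median log2 ratio 1.56) and 7 in midgut (0.86), while 14 were 2 times lower in neurons (-1.76) and 17 in hemocytes (-2.20), beside 15.4% and 16.1% of all features higher and 31% and 58.2% lower. Fib, the rRNA methylase, was at 190 CPM in fat body, against 57.3 CPM elsewhere, and at 11.4 CPM in hemocytes, against 82.8 CPM elsewhere. Hemocytes thus had an intermediate share of ribosomal protein UMIs beside low levels of these genes and of RpL24-like and RpLP0-like. Mitochondrial ribosomal proteins, which form the separate ribosome of the mitochondrion, were at least 2 times higher for 63 of 72 genes in fat body and 71 in midgut, and 2 times lower for 71 in epidermis, 69 in hemocytes, 57 in neurons and 32 in mira progenitors. Of all features, 15.4% and 16.1% were higher in fat body and midgut, and 61%, 58.2%, 31% and 31.5% were lower in the other 4 classes.

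In mira progenitors, the median log2 ratio was -0.42 for the ribosomal proteins and 0.36 for the nucleolar list, beside 0.21 over all features. Of the nucleolar list, 1 of 19 was higher and none lower, beside 31.8% and 31.5% of all features. The gene past the limit was Myc, a transcription factor that drives the genes of ribosome production and is not itself an assembly factor, with 669 CPM in mira progenitors, against 191 CPM elsewhere (log2 ratio 1.81, 1.42 to 1.96 over pairs). Non1 followed at 0.96, and Nop56 was lowest at 0.13 (-0.52 to 0.52). Initiation factors and their regulators were higher for 5 of 39 genes and lower for none, with a median of 0.52, beside 31.8% and 31.5% of all features. Thor, the 4E-BP repressor of cap-dependent initiation, was at 1147 CPM in mira progenitors, against 267 CPM elsewhere (2.10, 2.03 to 2.27), and eIF4G2 was at 176 CPM, against 49.1 CPM (1.84). The lowest in the list was eIF3j at -0.37. Of the elongation factors, eEF1alpha2 was at 27.4 CPM, against 4.19 CPM (2.71), and eEF1beta was lowest at -0.99. Mitochondrial mRpL20 was lowest at -1.90 and mRpS5 highest at -0.16.

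**Figure D5:**
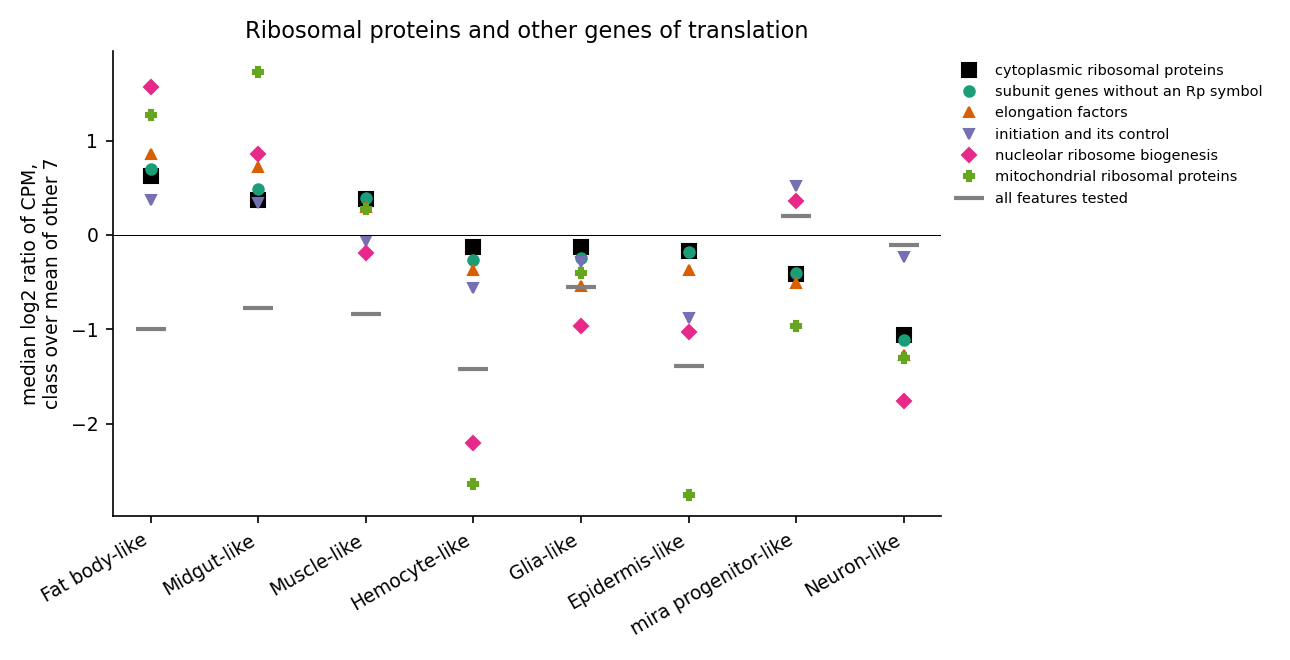
Log2 ratio of CPM in a class over the mean of the other 7 classes (y axis) for the 5 lists of other translation genes and the ribosomal proteins in the cell classes, shown as 1 point per list and class at its median, with a grey line at the median of all features tested. Mitochondrial ribosomal proteins span the widest range, at 1.73 in midgut and -2.76 in epidermis, and nucleolar genes lie at 1.56 in fat body and -2.20 in hemocytes.

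RNA released from broken cells adds a low level of abundant transcripts to every droplet. apolpp, a fat body lipoprotein gene, was at 6743 CPM in fat body and at 101 to 143 CPM in the other 7 classes, a like level in each. Its part in the ribosomal protein shares was not tested.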

How the data were processed

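Per the submitters' processing notes and the methods, the authors aligned droplet-based 3′ scRNA-seq reads of whole embryos to the Drosophila genome (BDGP6) and counted UMIs per gene with Cell Ranger 3.1.0, then pooled the libraries by aggregation in the same tool. The values deposited are raw UMI counts in whole numbers, with no normalization stated. Whether depth was equalised is not given in the sources used here. The paper describes the lanes as technical replicates of sequencing, so a molecule read on both lanes is counted under both barcode numbers. The counting intervals are therefore too narrow. Reads that align to more than 1 gene are not counted by this tool, which lowers near-identical copies.

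Barcode numbers n and n+4 had 99.6% or more of their barcodes in common (as a share of the smaller set) and other numbers at most 0.422%, so barcodes found under both were summed to 1 cell (35234 of 38531 cells had both). No source assigns the 8 numbers to samples, so the matrix was 1 pooled sample with 4 library pairs. Cells with under 200 genes (5125) or at least 20% mt: UMIs (5474) were removed. Clustering was run in Seurat 5.3.0 (R 4.3.3) on values normalized to 10000 UMIs, with 3000 variable genes that excluded the ribosomal protein genes, 50 principal components and resolution 1.0 (seed 1). A name needed at least 3 markers at 2 times the level of other cells with a UMI in at least 10% of cells. A name was withdrawn where leading genes of the cluster, read by eye after the clusters were seen, went against it. No doublet caller was run. As alternatives, the 8% deepest cells were left out, or cells with markers of other classes.

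UMIs were summed per class and scaled to the class total (CPM) or to its ribosomal protein total. Each class was set against the mean of the other 7, with the same weight for each. Genes needed 100 UMIs over the 8 classes, and a combination 20 expected UMIs. The limit was 2-fold. Intervals are 95% and exact (scipy 1.17.1, python 3.11.15) and cover counting error only. The calculation was tested on simulated data. An exact paired test over 4 pairs could not pass 0.05, so none was run.

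The gene list, marker lists, paralog pairs and lists of translation genes were chosen with earlier results of these data known. Genes named are all paralogs, the 3 with the highest and the 3 with the lowest ratio in each class, the 5 with the most UMIs, those under 100 UMIs, and the extremes of each translation list in mira progenitors. Paralogs were paired by symbol, since protein sequences were not used here. RpL10Aa, RpL7-like, RpS28a, RpS28-like, RpL22-like and RpL37b were too low to compare across the 8 classes.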

Additional observations from a re-analysis of the deposited data

Results flagged for a closer look

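In 4 of 22 groups of 4 library pairs looked at, 1 pair lay far from the other 3, and each time it was pair 1, with the highest share of UMIs in ribosomal protein genes. Its share was 25.6% in mira progenitors, where the gap to the next pair made up 0.896 of the whole range. The same ratio was 0.885 for neurons, with 21.3% in pair 1, 0.848 for epidermis, with 30.1%, and 0.954 for midgut, with 39.8%. All 4 ratios are above Dixon's 95% critical value, which chance passes in about 1 in 20 groups. Pair 1 also differed in its makeup of cells, with 4.16% neurons and 20.8% fat body, and had the lowest median depth, at 3519 UMIs per cell against 4279 to 4326. The part of these in the shares was not tested. The 4 classes are not independent, since they come from the same libraries.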

How the results depend on the processing

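Fat body had the highest and neurons the lowest share of UMIs in ribosomal protein genes under each of 20 alternatives, from 2.27-fold with cells chosen singly by markers to 3.36-fold with only cells that had fewer than 2 markers of every other class. Leaving out 1 library pair gave 2.82-fold to 2.93-fold, and the same weight for each pair, chosen after seeing the data, gave 2.56-fold. The share in mira progenitors was 24.9% with the ribosomal protein genes used in clustering, 27.2% with cells chosen singly, 27.8% with fewer than 2 other markers and 27.7% without the 50 most abundant other genes of each class. The last setting also gave 19.2% in neurons, 35.7% in glia, 40.9% in hemocytes, 51.9% in fat body, 51.1% in muscle, 39.5% in epidermis and 45.7% in midgut, because it shrinks the denominator. With fewer than 2 other markers, which left 6 midgut and 74 epidermis cells, the shares were 28.2% in hemocytes, 21.1% in epidermis and 30.01% in midgut. This setting also kept shallower cells. The median depth fell from 6103 to 633 UMIs in epidermis, from 12645 to 4743 in midgut and from 3771 to 1320.5 in mira progenitors. Resolution 0.5 gave 28.4% in epidermis, and leaving out mt: UMIs gave 27.5% in hemocytes and 27.6% in glia.

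The 15 combinations past 2-fold became 23 at resolution 2.0, 7 with fewer than 2 other markers, 25 at a limit of 1.5 times and 33 with a minimum of 20 UMIs. Leaving out 1 library pair gave 14 to 15, from 5 to 6 genes. RpS19b reversed in neurons, with a log2 ratio of 0.39 with cells chosen singly and 2.25 with fewer than 2 other markers, and in fat body, with 1.58 in the second of these. The cause was not tested. The other 13 combinations had the same direction in every alternative that gave a value. At resolution 0.5 and with seed 2, no cluster was named midgut, and 95 cells chosen singly by markers were used. In the cells with 2 or more germ cell markers, chosen after seeing the data, the log2 ratios were 10.17 for RpL22-like, 9.09 for RpL37b, 7.28 for RpS10a and 7.78 for RpS19b. No paired analysis was possible because the barcode numbers carry no replicate number of the labels and no test between conditions exists. Classes were compared within library pairs as a description. The depth limits the rare copies most, since 6 genes had under 100 UMIs over the 8 classes.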

Other observations

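Outside the named classes, RpS5b reached 1165 CPM in an unnamed cluster led by CG12011 (235 cells), above its 576 CPM in hemocytes, and RpL24-like reached 839 CPM in an unnamed cluster led by E(spl)m4-BFM (606 cells), above its 478 CPM in mira progenitors. The share of UMIs in ribosomal protein genes was 29.6% and 32.4% in these clusters. The clusters were picked for these levels, which are a description.

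Some unnamed clusters had shares as high as midgut, such as that led by CG15423, with 36.7% in 730 cells. That cluster had 762 CPM of the midgut marker mex1, against 354 CPM in the midgut-like class. Other unnamed clusters were about as low as neurons, such as that led by CG9686, with 14.2% in 643 cells and 1068 CPM of elav.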
